A study of Mus musculus with 4 samples.

Results

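The 10 somite and dermomyotome transcription factors described here are Tcf15, Meox1, Meox2, Foxc1, Foxc2, Pax3, Pax7, Uncx, Tbx18 and Dmrt2, chosen by name out of 24831 genes listed in each library. Their mRNA was measured by RNA sequencing in mouse somitic gastruloids, which are aggregates of embryonic stem cells that elongate in culture and form presomitic tissue and somites. All cells were of the E14 embryonic stem cell line with a triple reporter, in which endogenous Zeb2 is tagged with HA and FKBP12 F36V, a degron, so the untreated gastruloids carried the tag as well. Aggregates of 300 sorted cells received 3 μM CHIR99021, an activator of WNT signalling, after 48 h, and 10% Matrigel at 96 h. The dTAG-13 group was given 100 nM dTAG-13, a molecule that directs the tagged ZEB2 protein to degradation, at 72 h and again at 96 h. Controls are labelled untreated, while the culture protocol lists DMSO as the control treatment. Each group held 2 libraries, with replicate numbers 1 and 2 used in both. No label says what a shared number stands for, or that the libraries came from separate cultures, so the spread between them may be technical.

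Somites are epithelial blocks of paraxial mesoderm that bud off from the presomitic mesoderm at its anterior end. The dorsal side of a somite stays epithelial as the dermomyotome, the source of dermis and skeletal muscle, and its ventral side becomes the sclerotome, the source of vertebrae and ribs. Each somite is also divided into an anterior and a posterior compartment. The factors measured here mark these steps. TCF15, MEOX and FOXC proteins act as somites form and mature, TBX18 and UNCX mark the anterior and posterior compartment, and PAX3, PAX7 and DMRT2 are found in the dermomyotome. ZEB2 is a zinc finger repressor known for silencing epithelial genes and for binding SMAD proteins.

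The libraries held 11491330 to 12716172 reads counted in genes, so that 1 read was worth 0.0753 to 0.0890 CPM, the depth-normalised read count. The share of reads that the counting assigned to no gene was 35.7% in untreated replicate 1 and 24.1% to 29.2% in the other 3 libraries. Zeb2 mRNA was at 103 and 108 CPM with dTAG-13 and at 98.3 and 164 CPM in untreated gastruloids; the drug acts on the protein, which was not measured, so this level does not check the labels. Paraxial mesoderm markers were present in every library, with Tbx6 at 7.30 to 19.5 CPM and Mesp2 at 1.36 to 3.56 CPM. All 10 factors had at least 6 reads in every library, and all 10 passed the filter on low counts, Meox2 and Uncx with only 1 dTAG-13 library above the minimum of 0.840 CPM. These are whole gastruloids, in which fewer cells of a type and less RNA per cell cannot be told apart.

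Most of the factors were lower with dTAG-13. Tcf15, Meox1, Meox2, Foxc2, Tbx18 and Dmrt2 were each at under 50% of the untreated level within replicate number 1 and again within number 2. The share of all genes under 50% in both numbers was not counted. Dmrt2, at 23.4% and 26.8%, and Meox2, at 31.8% and 26.0%, were lowest. Foxc1 was at the same mean level in both groups. A total of 9 of the 10 factors lay below untreated in both numbers, against 23.9% of the 13602 genes tested. In 5 of the 10 both dTAG-13 libraries lay below both untreated ones, against 11.9% of all genes. The factors were chosen with earlier results of these data known, so these counts are a description only. The median log2 difference over the 10 was -1.04 in the fit, where that over all genes tested was 0.00. It was -1.56 without dTAG-13 replicate 1 and -0.62 without untreated replicate 1.

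None of the 10 passed an adjusted p of 0.05 in the quasi-likelihood test of edgeR, which had no term but the group, and neither did any other gene, so the share called was 0% of 13602 genes. At an unadjusted p under 0.05 the test gave 479 genes, 167 of them lower with dTAG-13, or 1.23% of all genes. The 5 factors Dmrt2, Tcf15, Foxc2, Pax3 and Tbx18 were among these 167. DESeq2 called 41 genes at an adjusted p of 0.05, of which 14 were lower, 0.114% of the 12315 genes it tested, and Dmrt2 was the only one of the 10 factors among them. For a single gene, an exact two-sided permutation test of 2 libraries against 2 cannot go below 0.333.

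**Figure D1:**
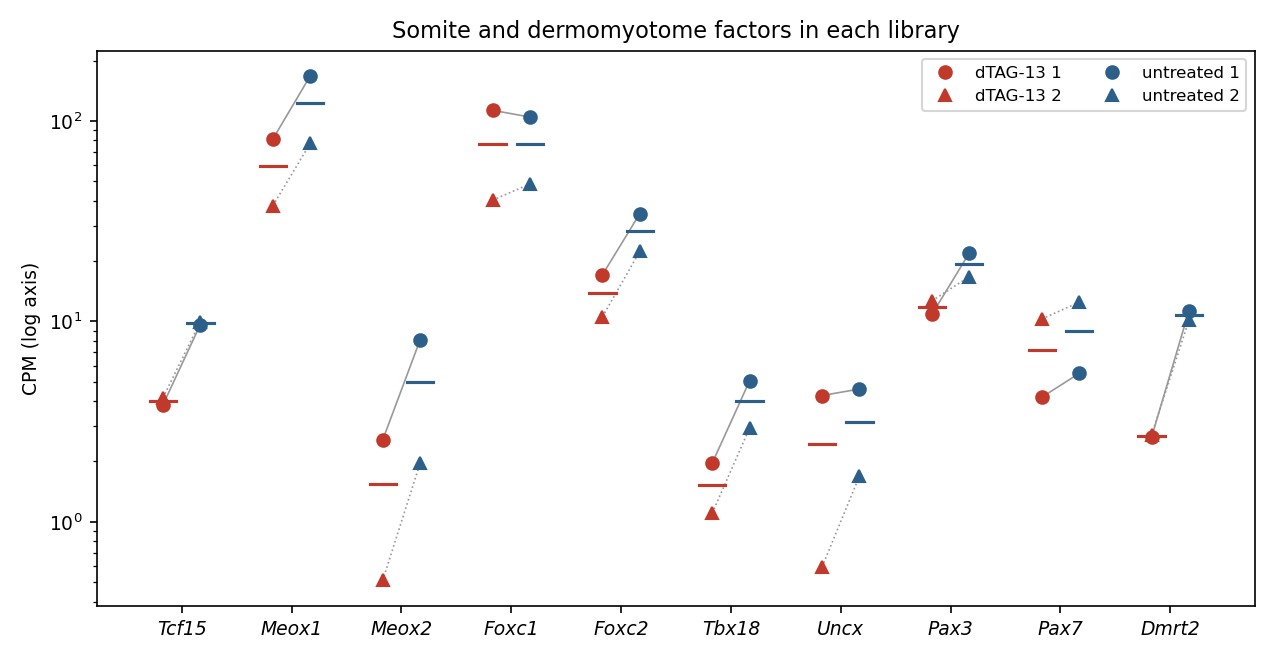
Level of each of the 10 factors in each library, in CPM on a log axis, with dTAG-13 (red) left of untreated (blue). Circles are replicate 1, triangles replicate 2, short bars the group means, and grey lines join libraries of the same number. Tcf15 and Dmrt2 have tight groups that stand apart, while Meox1, Meox2, Foxc1, Foxc2, Tbx18 and Uncx are higher in replicate 1 of both groups.

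Sequence at the start sites is shown for 3 factors because their differences run from the deepest to none. Dmrt2 and Meox2 had the lowest levels with dTAG-13 relative to untreated, and Foxc1 had no difference in mean. Each window runs from 250 bases before to 50 bases after the RefSeq start, in GRCm38.p6, and windows of 6 of the 10 factors were matched (Meox2, Foxc1, Pax7, Uncx, Tbx18 and Dmrt2). ZEB proteins are known to bind the E-box CACCTG, and its first bases, CACCT, form the core. Capitals mark CACCT or its reverse complement AGGTG. The windows are chr19:25672161-25672460 for Dmrt2, chr12:37108290-37108589 for Meox2 and chr13:31806396-31806695 for Foxc1, all on the plus strand.
Dmrt2: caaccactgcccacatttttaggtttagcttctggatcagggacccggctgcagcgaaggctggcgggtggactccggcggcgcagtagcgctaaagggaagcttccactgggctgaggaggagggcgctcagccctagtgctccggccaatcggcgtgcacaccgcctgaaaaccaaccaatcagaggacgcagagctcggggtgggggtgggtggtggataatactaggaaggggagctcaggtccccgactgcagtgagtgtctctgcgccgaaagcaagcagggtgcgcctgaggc
Meox2: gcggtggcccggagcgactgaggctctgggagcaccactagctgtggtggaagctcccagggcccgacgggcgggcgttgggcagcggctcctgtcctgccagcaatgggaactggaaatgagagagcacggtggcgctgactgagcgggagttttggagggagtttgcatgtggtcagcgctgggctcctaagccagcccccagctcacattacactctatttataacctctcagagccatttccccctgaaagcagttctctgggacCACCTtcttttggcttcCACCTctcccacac
Foxc1: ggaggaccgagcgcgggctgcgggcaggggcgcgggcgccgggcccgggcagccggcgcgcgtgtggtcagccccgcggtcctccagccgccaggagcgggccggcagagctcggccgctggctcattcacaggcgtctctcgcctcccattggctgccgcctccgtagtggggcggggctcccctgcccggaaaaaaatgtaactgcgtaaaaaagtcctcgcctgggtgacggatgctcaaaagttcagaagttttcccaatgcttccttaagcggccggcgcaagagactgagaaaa
CACCTG or its reverse complement CAGGTG occurred in 0 of the 6 matched windows, where 20.2% of all 32851 windows of the same length hold at least 1. CACCT on either strand, which lies within CACCTG, occurred in 3 of the 6, against 51.9% of all windows. Meox2 held it at bases 20 and 37 after the start, and 18.2% of all windows hold it at least 2 times. Pax7 held it at -163 and -141, and Uncx held AGGTG at -149. Dmrt2, Foxc1 and Tbx18 had none. A match or its absence is a description of the letters only, and binding of ZEB2 was not tested.

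Levels of different genes were compared per kilobase of exon, since longer transcripts collect more reads. Meox1 stood highest in both groups, at 26.7 ± 13.8 CPM per kilobase with dTAG-13 and 55.0 ± 28.7 in untreated gastruloids (SD, n = 2 each). With dTAG-13 the order then ran Foxc1, Foxc2, Tcf15, Pax3, Pax7, Dmrt2, Uncx, Meox2 and Tbx18, from 13.1 down to 0.325 CPM per kilobase. Of these neighbours, Foxc1 and Foxc2 did not overlap between libraries, nor did Tcf15 and Pax3, while all other neighbours overlapped. In untreated gastruloids the order after Meox1 was Foxc1, Foxc2, Tcf15, Dmrt2, Pax3, Meox2, Pax7, Uncx and Tbx18, from 13.1 down to 0.846 CPM per kilobase. There Meox1 was clear of Foxc1, Tcf15 of Dmrt2, and Dmrt2 of Pax3, and the remaining neighbours overlapped. Dmrt2 stood above Pax3 in both untreated libraries and below it in both dTAG-13 libraries on this scale.

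Tcf15 (chromosome 2, 152143561 to 152149097 in GRCm38) encodes paraxis, a basic helix-loop-helix factor that somites need to become epithelial in the mouse. It had 3.84 and 4.16 CPM with dTAG-13 and 9.64 and 9.96 CPM in untreated gastruloids. Libraries of a group lay close together and the groups did not overlap. The log2 fold change was -1.29 ± 0.31 (SE), 40.9% of the untreated level, with an adjusted p of 0.790 in edgeR. Leaving out single libraries moved it between -1.37 and -1.23, and it was at 39.8% of untreated within number 1 and at 41.8% within number 2.

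The MEOX homeobox factors were at similar fractions of untreated within each number, but both varied more between replicates than between groups. Meox1 (chromosome 11, 101877510 to 101894374), which acts in early somites and the sclerotome, had 81.2 and 37.8 CPM with dTAG-13 and 168 and 77.2 CPM untreated. Replicate 1 was the higher library in both groups, so that dTAG-13 replicate 1 overlapped untreated replicate 2. Within the numbers Meox1 was at 48.4% of untreated (95% exact interval 44.8% to 52.3%) and at 48.9% (43.5% to 54.9%). Such intervals cover counting error only and compare pairs of libraries, not the conditions. The fit gave a log2 fold change of -1.04 ± 0.59 with an adjusted p of 1.00, and -0.39 without untreated replicate 1.

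Meox2 (chromosome 12, 37108540 to 37179534), known for its part in limb muscle development, was far less abundant. It had 2.56 and 0.509 CPM with dTAG-13, from 30 and 6 reads, and 8.06 and 1.96 CPM untreated, from 107 and 22 reads. Again both replicate 1 libraries exceeded both replicate 2 libraries. Within number 1 it was at 31.8% of untreated (20.4% to 48.0%), and within number 2 at 26.0% (8.63% to 66.2%). Its log2 fold change was -1.71 ± 0.99 with an adjusted p of 1.00, and -0.36 without untreated replicate 1.

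The forkhead factors FOXC1 and FOXC2 are jointly needed for somite formation in the mouse and are also made in endothelium and head mesenchyme. Their genes differed here. Foxc2 (chromosome 8, 121116171 to 121118895) had 17.1 and 10.5 CPM with dTAG-13 and 34.4 and 22.3 CPM untreated, and the groups did not overlap. That is a log2 fold change of -1.04 ± 0.32 with an adjusted p of 1.00, and 49.6% of untreated within number 1 and 47.2% within number 2. Foxc1 (chromosome 13, 31806633 to 31812476) had 113 and 40.3 CPM with dTAG-13 and 105 and 48.5 CPM untreated. It averaged 76.6 ± 51.5 CPM with dTAG-13 and 76.6 ± 39.7 CPM untreated (SD, n = 2 each), and the fit put it at 99.98% of untreated. Within number 1 it was at 108% of untreated (100.1% to 117%) and within number 2 at 83.0% (73.2% to 94.1%), on opposite sides of no difference. Its log2 fold change was -0.93 without dTAG-13 replicate 1, 0.54 without dTAG-13 replicate 2 and 0.65 without untreated replicate 1. For every 100 reads of Foxc1 there were 15.1 and 26.2 reads of Foxc2 with dTAG-13, and 32.9 and 46.1 in untreated gastruloids. That difference between the genes was not tested.

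TBX18 is a T-box repressor that maintains the anterior compartment of the somite, and UNCX is a homeobox factor needed in the posterior one. Tbx18 (chromosome 9, 87702800 to 87731260) had 1.96 and 1.10 CPM with dTAG-13 and 5.05 and 2.94 CPM untreated, with no overlap. The log2 fold change was -1.38 ± 0.51 (adjusted p = 1.00), and -0.95 without untreated replicate 1. Over 970 of its exonic bases a transcript of unknown class is annotated on the opposite strand (not analysed here), and its reads could count for Tbx18 if strand was not used. Uncx (chromosome 5, 139543494 to 139548179) had 4.27 and 0.594 CPM with dTAG-13, from 50 and 7 reads, and 4.59 and 1.69 CPM untreated, from 61 and 19 reads. The libraries sorted by number rather than by group. Within number 1 the interval of Uncx included no difference (92.8% of untreated, 62.6% to 137%), and within number 2 it was at 35.2% (12.5% to 87.4%). The log2 fold change of -0.38 ± 0.98 turned to 0.51 without untreated replicate 1 and to 0.41 without dTAG-13 replicate 2. Reads of Uncx for every 100 of Tbx18 numbered 217 and 53.8 with dTAG-13 and 91.0 and 57.6 untreated, with no order between the groups.

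Among the dermomyotome factors, Dmrt2 stood apart from the PAX genes. Dmrt2 (chromosome 19, 25672411 to 25678991), a DM-domain factor of the dermomyotome and of somite patterning in the mouse, had 2.64 and 2.72 CPM with dTAG-13 and 11.3 and 10.1 CPM untreated. The difference was many times the spread within either group. The log2 fold change was -1.996 ± 0.319, or 3.99-fold lower, and ranked 9 by p among all genes tested. The adjusted p was 0.760 in edgeR, equal to the smallest over all genes, and 0.00446 in DESeq2. Without single libraries the log2 fold change stayed between -2.07 and -1.93.

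PAX3 marks the dermomyotome and its migrating muscle progenitors, and it is also made in the dorsal neural tube and neural crest. Pax3 (chromosome 1, 78101267 to 78197134) had 10.8 and 12.7 CPM with dTAG-13 and 21.9 and 16.7 CPM untreated. The groups did not overlap, and the log2 fold change was -0.72 ± 0.24 (adjusted p = 1.00). Within number 1 Pax3 was at 49.4% of untreated (39.8% to 61.1%), and within number 2 at 75.6% (60.6% to 94.3%). Pax7 (chromosome 4, 139737062 to 139833528), known in the central dermomyotome, in muscle stem cells and in the dorsal neural tube, had 4.18 and 10.3 CPM with dTAG-13 and 5.50 and 12.5 CPM untreated. It was the factor that was clearly higher in replicate 2 of both groups. Its within-number intervals both included no difference (51.8% to 111% and 64.1% to 106% of untreated), and its log2 fold change turned to 0.20 when dTAG-13 replicate 1 was left out and to 0.39 when untreated replicate 2 was. For every 100 reads of Pax3 there were 24.4 and 21.5 of Dmrt2 with dTAG-13, and 51.5 and 60.6 in untreated gastruloids, so the groups did not overlap in this ratio.

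**Figure D2:**
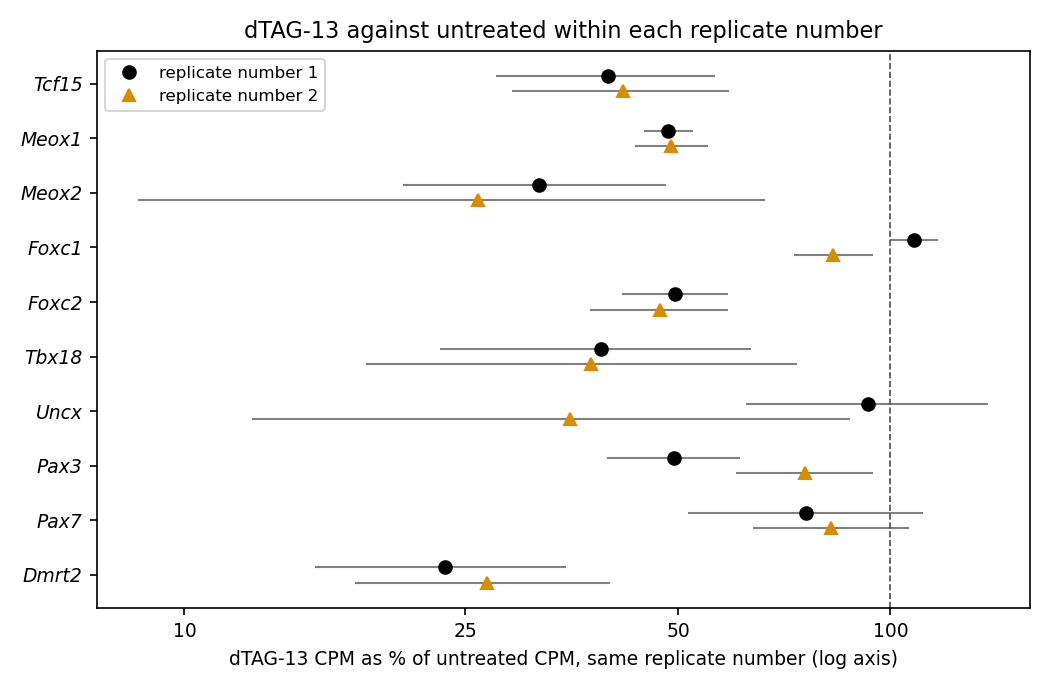
CPM with dTAG-13 as a percentage of untreated CPM of the same replicate number, on a log axis, for number 1 (circles) and number 2 (triangles). Grey lines are 95% exact intervals for counting error, and the dashed line is no difference. For 7 factors both intervals lie below 100%, and for Foxc1 they lie on either side. The matching share of all genes was not counted, so the 7 are a description of these counts only.

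The factors divided into 2 sets of 5 by which difference was the larger. In Tcf15, Foxc2, Pax3, Tbx18 and Dmrt2 both differences between groups exceeded both differences between replicates on the log2 scale. These are also the 5 without overlap between groups, which follows from nearly the same values. In Meox1, Meox2, Foxc1, Pax7 and Uncx both replicate differences were the larger. The difference of replicate 2 from replicate 1 was -1.10 in the dTAG-13 group and -1.12 in the untreated group for Meox1. For Meox2 it was -2.01 with dTAG-13 and -1.95 untreated, for Uncx -2.54 and -1.36, and for Pax7 1.26 and 1.16. Over all genes tested the median size of this difference was 0.23 in either group. That of the difference between groups was 0.18 within either number. The share of all genes in each of the 2 sets was not counted. Replicate 2 was lower in both groups for 6 of the 10 factors and higher for Tcf15 and Pax7.

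**Figure D3:**
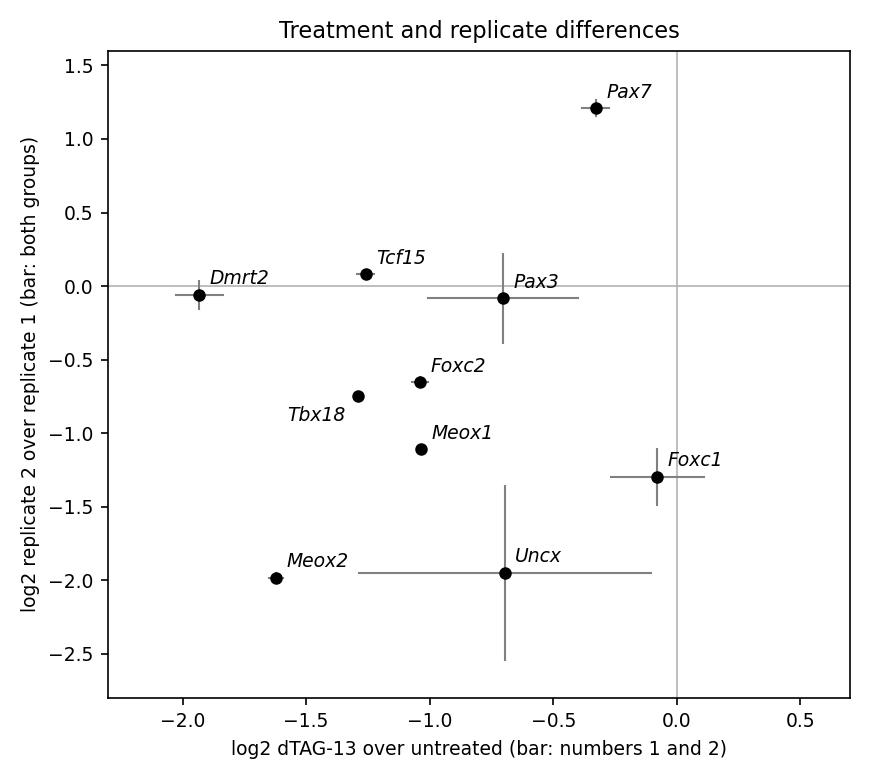
Difference between groups (x, log2 dTAG-13 over untreated) against difference between replicates (y, log2 replicate 2 over replicate 1) for each factor. Points are means of 2 differences and bars join the 2, which are numbers 1 and 2 on x and the dTAG-13 and untreated groups on y. Dmrt2 and Tcf15 lie far left and near 0 on y, Foxc1 near 0 on x, and Pax7 alone lies high on y.

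Genes of the segment border, which act just before a somite forms, were lower as well. This list and those below were chosen with earlier results of these data known, so their counts are a description only. Of 10 segment border genes, 9 were tested. None passed an adjusted p of 0.05 in edgeR or in DESeq2. In edgeR 7 were lower at an unadjusted p under 0.05, against 1.23% of all genes. All 9 had a fitted value below untreated, against 49.1% of all genes. In both numbers 8 lay below it, against 23.9% of all genes, and the median log2 difference was -0.70. Pcdh8, a protocadherin of the forming somite, had 6.82 and 10.4 CPM with dTAG-13 and 16.9 and 19.2 CPM untreated (log2 -1.07 ± 0.28, adjusted p = 0.926). Hes7, the oscillating repressor of the segmentation clock, had 14.7 and 13.8 CPM with dTAG-13 and 24.1 and 22.2 CPM untreated (log2 -0.70 ± 0.20, adjusted p = 0.948). Replicate 2 minus replicate 1 had a median of -0.25 in the dTAG-13 group and 0.04 in the untreated group for this list, against -0.72 and -0.69 for the 10 somite factors.

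Lists of the tissues that somites give rise to, and of further genes of the somite itself, had no such shift in their medians. Single genes went both ways. Of the genes tested, 1 sclerotome, 2 myogenic and 3 somite signalling genes lay below untreated in both numbers. Above it in both numbers lay 1, 3 and 2. In these lists 0 genes passed in edgeR and 0 in DESeq2, and at an unadjusted p under 0.05 in edgeR there was 1 gene of the sclerotome list and 1 of the somite signalling list. Of 6 sclerotome and tendon genes 4 were tested and the median was 0.49. Sox9, a cartilage factor also made in notochord and neural crest, had 70.2 and 50.5 CPM with dTAG-13 and 39.6 and 29.5 CPM untreated (log2 0.80 ± 0.22, adjusted p = 0.948). Of 10 myogenic factors and partners 6 were tested and the median was 0.23. Myog and Myf6, factors of differentiating muscle, had no reads in any library, and Myf5 and Myod1, which commit cells to muscle, had too few to test. Six4, a partner of the myogenic programme, had 122 and 100.4 CPM with dTAG-13 and 101 and 79.7 CPM untreated, and Met, the receptor of migrating muscle progenitors, had 39.8 and 35.2 CPM with dTAG-13 and 33.9 and 30.4 CPM untreated. Among 7 signalling, adhesion and matrix genes of the somite, all tested, the median was 0.04. Fst, which encodes follistatin, had 38.7 and 39.7 CPM with dTAG-13 and 64.5 and 56.2 CPM untreated (log2 -0.62 ± 0.15, adjusted p = 0.790), and Efnb2, an ephrin, had a log2 value of 0.29 ± 0.18.

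**Figure D4:**
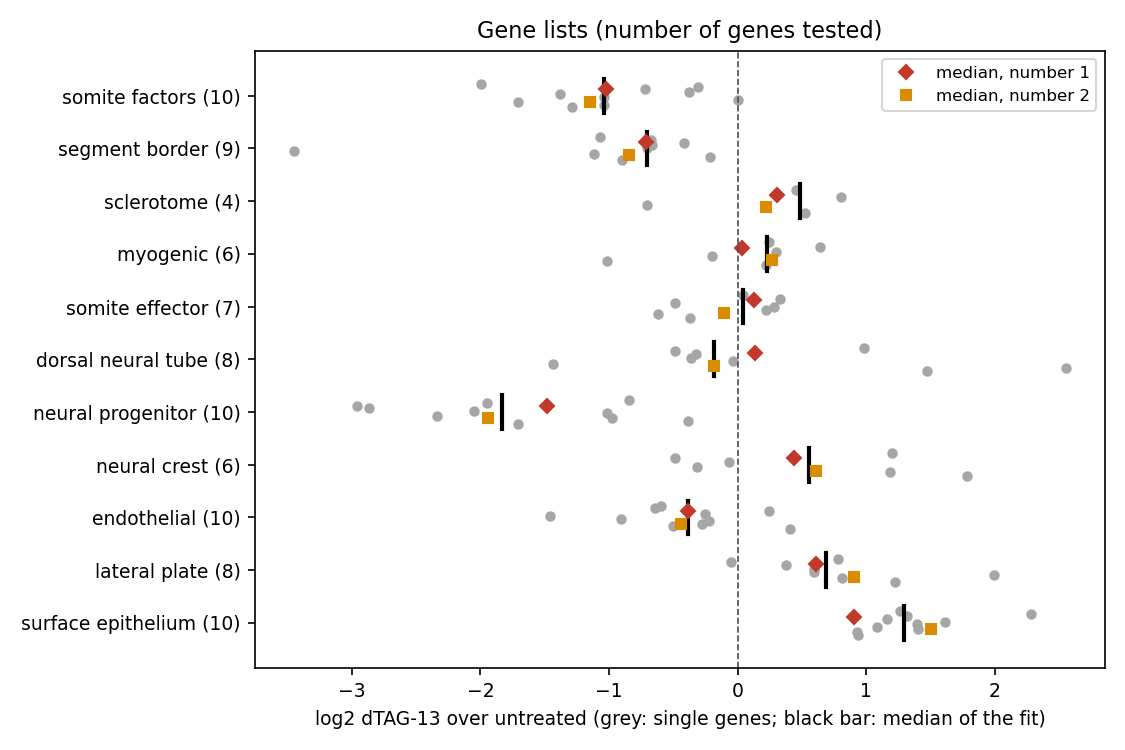
Log2 fold change, dTAG-13 over untreated, of single genes (grey points) in the somite factor list and 10 other lists, with the number of genes tested in brackets. Black bars are medians of the fit, diamonds and squares medians within replicate numbers 1 and 2. Somite factors other than Foxc1, segment border and neural progenitor genes lie left of 0. Epithelial genes and most lateral plate genes lie right of it.

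Several of the factors are also made outside somites, and markers of those tissues were read beside them. These lists too were chosen with earlier results known, so counts set beside those of all genes only describe them. Neural progenitor markers were lower in both numbers in 10 of 10 genes tested, against 23.9% of all genes, with a median of -1.83. In edgeR 0 passed, with 8 lower at an unadjusted p under 0.05, against 1.23% of all genes. DESeq2 called 3 of the markers lower, Ptn, Irx3 and Sox1 (adjusted p = 0.00546, 0.0394 and 0.0185), against 0.114% of all genes. For genes that were higher, the counts over all genes were 312 of 13602 and 27 of 12315. The neural progenitor markers summed to 218 and 274 CPM with dTAG-13 and 347 and 515 CPM untreated, and no marker was at 0. Ptn and Irx3 had log2 fold changes of -0.85 ± 0.15 and -1.02 ± 0.21. Dorsal neural tube markers, which concern Pax3 and Pax7, had 8 of 10 tested and a median of -0.18, with 0 passing in edgeR (2 at an unadjusted p under 0.05) and 1, Msx2, called higher by DESeq2 (adjusted p = 0.00255). Their sum was 133 and 287 CPM with dTAG-13 and 108 and 222 CPM untreated, higher in replicate 2 of both groups as Pax7 was. Within this list Msx2, a BMP target, was at 9.04 and 11.3 CPM with dTAG-13 and 2.26 and 1.16 CPM untreated, and Zic1 at 1.45 and 1.78 CPM with dTAG-13 and 3.92 and 4.89 CPM untreated. Migrating neural crest markers had 6 of 8 tested and a median of 0.56, with 0 passing in edgeR (2 at an unadjusted p under 0.05) and 1, Erbb3, called higher by DESeq2 (adjusted p = 0.00657). Their sums were 128 and 119 CPM with dTAG-13 and 105 and 59.5 CPM untreated. Foxd3 was at 0 in every library and Sox10 at 0.255 to 0.452 CPM. Erbb3 and Tfap2a, made in crest and in surface ectoderm, had log2 values of 1.20 ± 0.22 and 1.79 ± 0.45. The part of these cells in the levels of Pax3 and Pax7 was not tested.

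Endothelial markers, which concern Foxc1 and Foxc2, were tested in 10 of 10 genes, with a median of -0.39. In edgeR and in DESeq2 0 passed, and 0 had an unadjusted p under 0.05 in edgeR. Of the 10, 8 had a fitted value below untreated, against 49.1% of all genes. In both numbers 6 lay below untreated, against 23.9% of all genes, and 2 lay above it. The endothelial markers summed to 168 and 67.1 CPM with dTAG-13 and 199 and 59.3 CPM untreated. Lateral plate and heart markers had 8 of 10 tested, 0 passing in either tool, 0 at an unadjusted p under 0.05 in edgeR, and a median of 0.69. Of the 8, 7 lay above untreated in both numbers. The markers summed to 121 and 28.9 CPM with dTAG-13 and 85.1 and 14.9 CPM untreated. Both sums were higher in replicate 1 of both groups, as Foxc1, Foxc2, Uncx, Tbx18, Meox1 and Meox2 were. No endothelial marker was at 0, and Hand1 was at 0 in untreated replicate 2. Pecam1 and Emcn had log2 values of 0.40 ± 0.18 and -1.46 ± 1.35, and Hand1 and Osr1 of 1.99 ± 1.54 and 1.22 ± 1.04. Epithelial markers were above untreated in both numbers in 10 of 10 genes, with a median of 1.29. The share of all genes above untreated in both numbers was not counted. In edgeR 0 passed, with 7 higher at an unadjusted p under 0.05, against 312 of all 13602 genes. DESeq2 called 4 higher, Krt8, Krt18, Cldn6 and Cldn7 (adjusted p from 0.000687 to 0.00722), against 27 of 12315 genes. The epithelial markers summed to 1038 and 1961 CPM with dTAG-13 and to 576 and 812 CPM untreated. Krt18 and Krt8 had log2 values of 1.08 ± 0.22 and 1.40 ± 0.27. The part of these cell types in the somite factors' levels was not tested.

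The genes whose pattern over the 4 libraries lay nearest to that of Dmrt2, by Euclidean distance of centred log2 CPM among 13462 genes, were Pou3f2, Zfp663, Nkx6-1, Bmp3 and Slitrk1. The distances were 0.19 for Pou3f2, 0.22 for Zfp663, 0.45 for Nkx6-1, 0.47 for Bmp3 and 0.55 for Slitrk1. Pou3f2 had 1.28 and 1.19 CPM with dTAG-13 and 4.82 and 5.07 CPM untreated. None of these is among the 10 factors, and a distance over 4 libraries carries no p.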

How the data were processed

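RNA was extracted with a column kit and DNase, and libraries were made with KAPA RNA HyperPrep after ribosomal RNA depletion, per the labels' protocols. The submitters' processing notes list HTSeq 0.12.4, STAR 2.7.6a, fastp 0.20.1 and DESeq2 1.34.0, with builds GRCm38.p6 and mm10, and give no roles. Annotation and strand setting: not given in the sources used here. Each deposited table holds raw counts per gene symbol of 1 library, and its closing summary lines were left out. Reads of near-identical gene copies or of overlapping genes are uncertain in such counts.

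These counts were tested with edgeR 4.0.16 (R 4.3.3): filterByExpr (minimum count 10, minimum total 15), TMM factors, glmQLFit with robust estimation, two-sided glmQLFTest with the group as its only term, and Benjamini-Hochberg adjustment over 13602 genes. The procedure was checked on simulated counts. These had the same dispersion for every gene and no difference between replicate numbers, so the check does not cover such differences. CPM use TMM library sizes, and log2 differences add a prior count of 2. Standard errors are the log2 fold change over the square root of F. The alternative DESeq2 was version 1.42.0. Intervals of a ratio of 2 counts are exact binomial ones at 95%. Counts of the 2 replicates of a group differed by more than sampling noise (chi-square per degree of freedom 32.4 with dTAG-13 and 38.2 untreated). Between the groups this value was smaller, at 26.3 within number 1 and 23.9 within number 2. Gene positions and exon lengths come from GENCODE M21, promoters from RefSeq (GRCm38.p6).

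The factors and the other lists were chosen with earlier results of these data known. All 10 factors were named, with 2 genes from each other list, those of smallest p whose average log2 CPM reached 0 (1 gene of the sclerotome list is not reported here), and the 5 genes nearest to the factor of smallest p. Genes at or near 0 and those in ratios were named after their values were seen.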

Additional observations from a re-analysis of the deposited data

How the results depend on the processing

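With 2 libraries a group, normalization and filters changed little, while single libraries and the replicate number changed more. The count of 9 factors below untreated in both numbers was the same in all 6 alternatives that give it, and the median log2 fold change lay between -1.07 and -1.04 outside the fits that leave out a library. Leaving out each library in turn gave -1.56 to -0.62 for the median, -0.93 to 0.65 for Foxc1, -1.11 to 0.39 for Pax7 and -2.39 to 0.51 for Uncx, with 0 factors and 0 genes called each time; the lone library left in a group is then assumed to vary like the others. Foxc1 was also at 0.0048 with no filter. DESeq2 called 41 genes and 1 factor, Dmrt2. A replicate block in edgeR gave 636 genes called, 395 higher and 241 lower (1.77% of all genes), and called 7 factors, all lower: Tcf15, Meox1, Meox2, Foxc2, Pax3, Tbx18 and Dmrt2. Deviations from the group means of same-numbered libraries had a correlation of 0.63 across all genes tested and 0.93 across the 10 factors, 8 of them with the same sign. Genes are not independent replicates, and no label says that the numbers pair the samples. Without the block edgeR called none of the 10 factors. Depth limits Meox2 and Uncx most, with 6 and 7 reads in dTAG-13 replicate 2.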
